A study of Mus musculus with 101 samples.

Results

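The RNA response of mouse cortex to lipopolysaccharide (LPS, part of the outer membrane of Gram-negative bacteria) was compared between astrocytes and the tissue around them, 1 day after injection. All 32 day 1 libraries of immunoprecipitated ribosomes (IP) and of cleared lysate (input) were taken, of 101 libraries in the series, and the members were chosen by their labels alone. The mice were of the strain labelled C57 and received LPS at 5 mg per kg or phosphate-buffered saline (PBS) into the peritoneum, and tissue came from 2 cortical areas with the labels PFC and VCX. In every group of this comparison, controls included, the ribosomes of astrocytes carried a hemagglutinin tag, and the IP is the RNA pulled down through that tag. The input is the RNA of the lysate before the pull-down. There were 8 groups, 1 for each combination of area, fraction and treatment, with 4 libraries each, 2 from females and 2 from males. Neither the driver of the tag, the age of the mice nor whether libraries share an animal is given in the labels, so p-values measure the spread between libraries, which may in part be technical.

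LPS is recognised by Toll-like receptor 4 with its partners CD14 and MD-2, mainly on myeloid and endothelial cells, and leads to NF-kB-driven cytokine and chemokine production and to type I interferon. Astrocytes respond to the cytokines of microglia and of the blood with STAT3, NF-kB and interferon-regulated genes, and to the glucocorticoids released under stress. A pull-down of tagged ribosomes samples the RNA that one cell type is translating, whereas the lysate holds RNA from neurons, glia, vessels and blood cells together.

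The quantity described here is a difference of 2 LPS effects, each as log2 LPS minus log2 PBS, with the effect in input subtracted from the effect in IP and averaged over PFC and VCX. A value above 0 means that the LPS effect was more positive in IP, which includes genes that fell in input and did not fall in IP. Levels are given as FPKM divided by a scaling factor per library (scaled FPKM), as the lowest, median and highest of the 8 libraries of a fraction and treatment. A gene was called when limma gave a Benjamini-Hochberg adjusted p under 0.05 over all 15048 genes tested.

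Recovered depth was 43.84 to 72.94 M reads in the IP libraries and 35.01 to 50.87 M in the input libraries. The tagged fraction carried the astrocyte label: all 20 astrocyte markers were detected, their median level was 4.30 higher on the log2 scale in IP than in input under PBS, and the same median over 18 neuron markers was -3.51. The sums of some other marker lists were also higher in IP than in input under PBS. Summed medians were 16.7 against 1.66 scaled FPKM for erythrocyte markers, 172 against 49.1 for meningeal fibroblast markers, 28.6 against 6.37 for choroid plexus and ependyma markers, 87.2 against 56.1 for pericyte and smooth muscle markers and 645 against 137 for markers of oligodendrocyte precursors. The median log2 IP minus input of single genes was 2.39, 1.63 and 1.6 in the erythrocyte, fibroblast and choroid lists. It was -1.22 and -1.33 in the pericyte and precursor lists, whose typical marker was therefore lower in IP. Astrocyte markers summed to a median of 23600 scaled FPKM in IP after PBS and 24600 after LPS, against 1120 and 1100 in input. The summed level of 18 neutrophil and monocyte markers moved with LPS in both fractions. It had a median of 31.8 in IP after PBS (17.5 to 71.2) and 237 in IP after LPS (176 to 291), and of 9.02 (7.65 to 13.8) and 42.2 (33.9 to 55.4) in input. Markers of T, NK and B cells summed to at most 1.63 in any library. In bulk RNA a change in the number of cells of a type and a change in RNA per cell cannot be told apart.

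**Figure D1:**
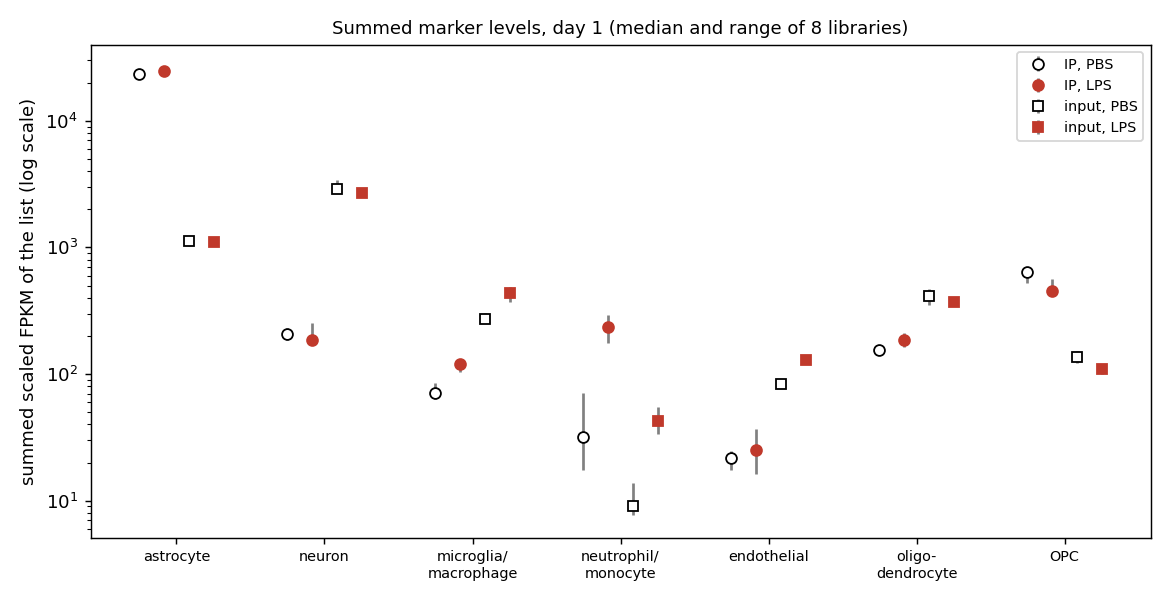
Summed scaled FPKM of 7 marker lists (vertical axis, log scale) in IP and input after PBS and LPS, as the median of 8 libraries with a bar from the lowest to the highest library. Astrocyte markers stand at 23600 after PBS and 24600 after LPS in IP, and neutrophil and monocyte markers go from 31.8 to 237 in IP and from 9.02 to 42.2 in input.

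The difference was above 0 for 1345 genes (8.94% of those tested) and below 0 for 986 genes (6.55%). Of these 2331 genes, 171 had a difference of at least 2-fold above 0 and 62 of at least 2-fold below 0. The split between the directions depended on the scaling. With RLE factors 1202 genes lay above and 1128 below, with factors computed within each fraction 1113 and 1227, and with no rescaling 972 and 1468. The percentage of calls that lay above 0 was therefore 57.7% as analysed, 51.6%, 47.6% and 39.8%. The median difference over all genes was 0.02 as analysed and lay between -0.03 and 0.02 under these settings.

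In IP alone 2846 genes rose after LPS (18.9%) and 2942 fell (19.6%), and in input 1595 rose (10.6%) and 2038 fell (13.5%). Of the genes that rose in IP, 996 also rose in input, which is 35% of the IP list and 62.4% of the input list. Of those that fell in IP, 1018 also fell in input, 34.6% of the IP list and 50% of the input list. Across the 15048 genes the LPS effects in IP and input had a Pearson r of 0.645 and a Spearman rho of 0.468. The points are genes of the same libraries and not independent, and the fractions may share animals.

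Most genes above 0 moved in IP. Of the 1345, 710 rose in IP with no call in input, 223 rose in both, and 120 rose in IP and fell in input. Another 232 fell in input with no call in IP. Below 0, 519 genes fell in IP with no call in input, 220 rose in input with no call in IP, 90 fell in both, 65 rose in both and 61 fell in IP and rose in input. Sorting each called gene by the fraction with the larger LPS effect gave 4 classes. In 1015 the difference was above 0 and the larger effect was in IP, in 330 it was above 0 with the larger effect in input, in 646 it was below 0 with the larger effect in IP, and in 340 it was below 0 with the larger effect in input.

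**Figure D2:**
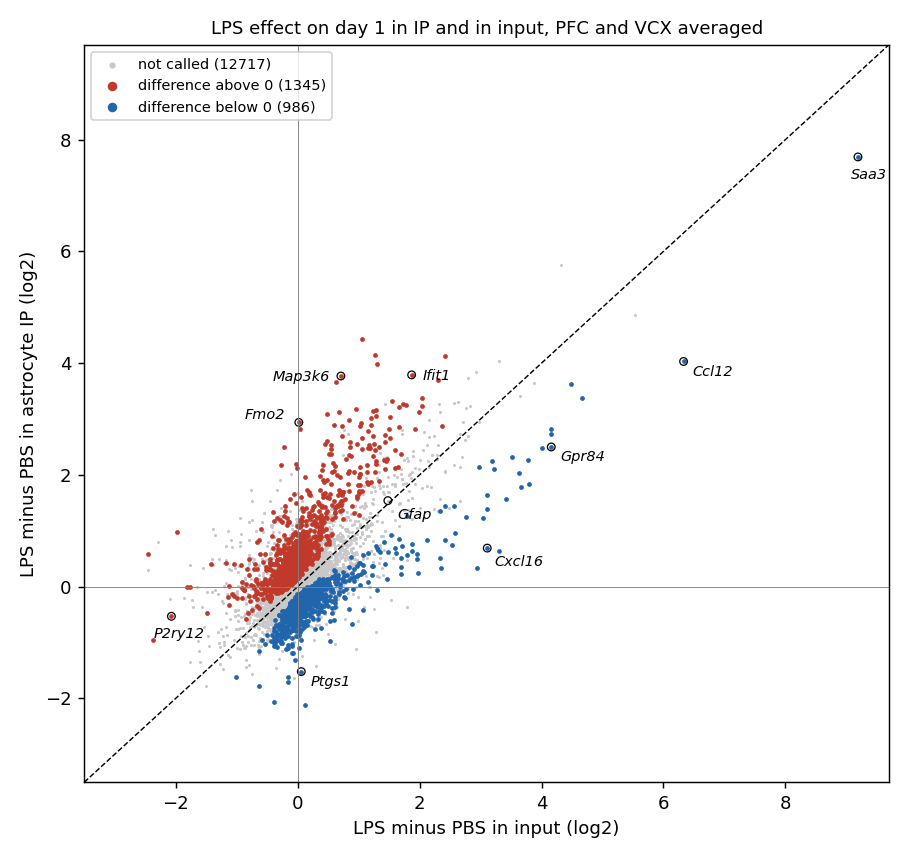
LPS minus PBS in input (horizontal axis) against LPS minus PBS in IP (vertical axis), both log2 and averaged over PFC and VCX, 1 point per tested gene. Called genes are red where the difference is above 0 (1345) and blue where it is below 0 (986). The dashed line marks equal effects. Map3k6 and Fmo2 lie far above it, Cxcl16, Gpr84, Ccl12 and Saa3 below it, and Gfap close to it.

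Promoter sequences are shown for 5 genes that stand on either side of this comparison, so that the regulatory letters can be read beside the values below. Each of these windows holds a match to a motif, so they do not stand for the genes of either side. The windows of Lao1, Slco4a1, Ccl12, Ccl3, Bcl2a1a, Gpr84 and Fkbp5 held none. The window of the first annotated start of Nfkb2, not printed, holds a STAT site and no NF-kB site. They run 5′ to 3′ on the strand of the gene from RefSeq on GRCm38.p6 and cover an annotated transcription start. Capitals mark every match, on either strand, to 4 motifs: the interferon-stimulated response element (GAAA, 2 free bases, GAAA), the NF-kB site (GGGA, 1 free base, TTTCC), the glucocorticoid receptor element (G, 1 free base, ACA, 3 free bases, TGT, 1 free base, C) and the STAT site (TTC, 3 free bases, GAA). No 2 matches printed here overlap. Map3k6 (chr4:133240568-133240867, plus strand) and the interferon-regulated Ifit1 (chr19:34640639-34640938, plus strand) and Gbp5 (chr3:142496684-142496983, plus strand) had larger effects in IP. Saa3 (chr7:46715627-46715926, minus strand) and Nfkb2 (chr19:46305445-46305744, plus strand, the second of its annotated starts) had larger effects in input.
Map3k6: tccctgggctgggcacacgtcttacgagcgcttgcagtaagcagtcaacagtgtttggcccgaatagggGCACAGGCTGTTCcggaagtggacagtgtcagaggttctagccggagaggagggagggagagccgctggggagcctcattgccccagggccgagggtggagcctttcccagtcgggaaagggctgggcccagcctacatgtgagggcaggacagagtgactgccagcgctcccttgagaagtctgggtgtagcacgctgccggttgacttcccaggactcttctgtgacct
Ifit1: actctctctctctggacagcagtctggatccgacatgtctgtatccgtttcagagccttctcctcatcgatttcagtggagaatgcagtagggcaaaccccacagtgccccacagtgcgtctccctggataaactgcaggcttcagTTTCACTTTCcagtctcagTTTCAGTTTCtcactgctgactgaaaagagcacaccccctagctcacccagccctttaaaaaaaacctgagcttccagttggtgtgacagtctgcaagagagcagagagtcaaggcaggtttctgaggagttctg
Gbp5: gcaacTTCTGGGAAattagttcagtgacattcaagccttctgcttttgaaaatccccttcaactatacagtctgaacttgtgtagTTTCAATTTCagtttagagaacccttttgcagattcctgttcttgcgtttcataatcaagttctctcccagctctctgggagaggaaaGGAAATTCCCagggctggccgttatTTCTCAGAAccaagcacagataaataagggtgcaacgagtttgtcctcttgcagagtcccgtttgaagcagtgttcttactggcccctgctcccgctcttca
Saa3: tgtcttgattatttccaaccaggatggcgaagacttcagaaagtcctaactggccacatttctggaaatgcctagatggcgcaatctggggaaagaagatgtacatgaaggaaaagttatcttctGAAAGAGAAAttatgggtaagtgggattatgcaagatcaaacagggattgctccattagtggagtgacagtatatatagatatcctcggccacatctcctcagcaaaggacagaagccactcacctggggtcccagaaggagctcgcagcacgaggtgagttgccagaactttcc
Nfkb2: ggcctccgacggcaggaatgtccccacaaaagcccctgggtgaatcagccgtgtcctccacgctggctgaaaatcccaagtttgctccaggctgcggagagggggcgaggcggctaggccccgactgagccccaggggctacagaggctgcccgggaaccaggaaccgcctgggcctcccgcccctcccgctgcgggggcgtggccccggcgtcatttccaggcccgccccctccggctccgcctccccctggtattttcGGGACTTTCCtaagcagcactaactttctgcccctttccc

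The Map3k6 window holds 1 glucocorticoid element, GCACAGGCTGTTC, from 181 to 169 bases before the start. Ifit1 holds a pair of interferon elements, and Gbp5 holds 1, together with 1 NF-kB site and a pair of STAT sites. Saa3 holds 1 interferon element, and the Nfkb2 window holds GGGACTTTCC, which ends 19 bases into the transcript. Of the tested genes 10858 had a promoter in the RefSeq table. The interferon element occurred in 3.6% of these, in 11.4% (13 of 114) of genes with a difference of at least 2-fold above 0 and the larger effect in IP, and in 19.4% (7 of 36) of genes with a difference of at least 2-fold below 0 and the larger effect in input. The glucocorticoid element occurred in 0.405%, 2.63% (3 of 114) and 0% (0 of 36) of the same groups, the NF-kB site in 0.534%, 1.75% and 5.56%, and the STAT site in 8.34%, 15.8% and 8.33%. Over all called genes of the 2 classes the shares were 5.91% (44 of 745) and 4.07% (11 of 270) for the interferon element, 0.94% and 0.37% for the glucocorticoid element, 0.268% and 1.48% for the NF-kB site and 10.2% and 8.15% for the STAT site. These shares were not tested, and a match is a string of letters and not a shown binding site.

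The genes with the largest difference above 0 rose in the astrocyte IP by more than in the lysate. Map3k6 (a stress-activated kinase of the MAP3K family, chromosome 4, 133240818 to 133252929) was at 0.207, 0.311 and 0.494 scaled FPKM in IP after PBS and at 3.81, 5.91 and 7.96 in IP after LPS. In input it went from 0.806, 0.952 and 1.33 to 1.49, 1.62 and 2.21. The treatments did not overlap in either fraction, and the order of the fractions turned: input stood above IP after PBS, and IP stood above input after LPS. The LPS effect was 3.77 in IP and 0.71 in input, a difference of 3.05 (SE 0.20, adjusted p = 1.55e-11), at 3.18 in PFC and 2.93 in VCX.

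Fmo2 (a flavin-containing monooxygenase, chromosome 1, 162874317 to 162898726) was at 0.421, 0.686 and 1.04 in IP after PBS and at 4.49, 5.08 and 8.50 after LPS. In input it was at 0.316, 0.388 and 0.522 after PBS and 0.202, 0.401 and 0.575 after LPS. All 8 LPS libraries stood above all 8 PBS libraries in IP, and the groups overlapped in input. The difference was 2.92 (SE 0.23, adjusted p = 5.24e-10). Slco4a1, an organic anion transporter, was of the same kind, with an effect of 2.82 in IP and 0.04 in input (difference 2.78, adjusted p = 3.09e-10). Fbln5, an elastic fibre glycoprotein, had a median of 1.25 in IP after PBS (0.811 to 1.36) and 11.1 after LPS (5.88 to 22.8), and in input of 0.588 and 0.825. Its difference was 2.6 (SE 0.17, adjusted p = 1.55e-11).

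Otoa, which encodes otoancorin of the inner ear, and Lao1, an L-amino acid oxidase, were nearly absent under PBS in both fractions, with medians of at most 0.158 scaled FPKM. After LPS the IP medians were 2.06 for Otoa and 5.11 for Lao1, and the input medians 0.088 and 0.34. The differences were 3.04 and 2.88 (adjusted p = 6.69e-08 and 4.5e-07). With 1 FPKM added before the logarithm in place of 0.1, the differences were smaller, at 1.44 for Otoa, 1.97 for Lao1, 1.88 for Map3k6, 1.99 for Fmo2, 1.62 for Slco4a1 and 2.2 for Fbln5, and all stayed called. Iigp1, an interferon-induced GTPase that acts against intracellular pathogens, completed the 7 genes of this class named by size, at a difference of 2.67 (adjusted p = 4.98e-05).

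**Figure D3:**
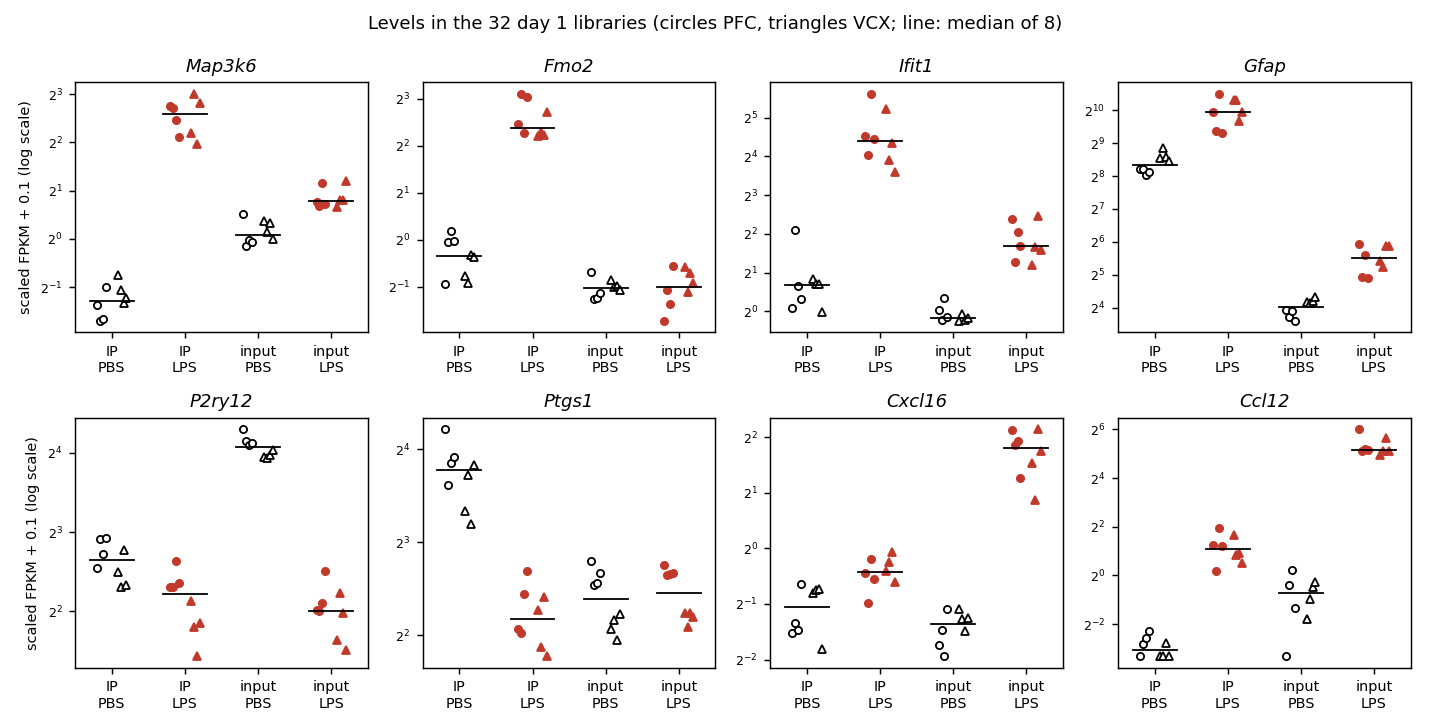
Scaled FPKM plus 0.1 (vertical axis, log scale) of 8 genes in each of the 32 libraries, by fraction and treatment. Circles are PFC, triangles VCX, red points LPS, and each line is the median of 8 libraries. Map3k6, Fmo2 and Ifit1 rise more in IP, Gfap rises in both, and P2ry12 falls more in input. Ptgs1 falls in IP and not in input, and Cxcl16 rises more in input. Ccl12 rises in both, by more in input on this scale, which depends on the 0.1 added.

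Interferon-regulated genes rose in both fractions, and where a difference was called it lay above 0. Of 45 interferon-stimulated genes tested (48 listed), 45 rose in IP and 41 in input, and the difference was above 0 for 23 and below 0 for none, against 8.94% and 6.55% of all genes. The median difference over the 45 was 0.80. Of all genes 18.9% rose in IP and 10.6% in input. Of 14 interferon-induced GTPases tested (18 listed), all rose in IP and 13 in input, and 9 differences lay above 0 and 0 below, with a median of 1.01. With limma-voom on the recovered reads, which weights each value by its depth, the calls above 0 were 13 of 45 and 4 of 14.

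Ifit1, a sensor of foreign RNA that blocks translation, was at 0.888, 1.51 and 4.18 in IP after PBS and 12, 20.9 and 49.1 after LPS, and in input at 0.742, 0.796 and 1.18 and then 2.18, 3.10 and 5.40. The treatments did not overlap in either fraction. Its effect was 3.79 in IP and 1.87 in input (difference 1.92, SE 0.38, adjusted p = 0.000945). Slfn8 (difference 1.89), Ifi44 (1.77) and Xaf1 (1.76), all interferon-induced, had the next largest differences in the list, and of these Slfn8 and Ifi44 lost the call with limma-voom. Irf9 and Usp18 lie outside the naming rule and were chosen after their values were seen. For Irf9, a subunit of the ISGF3 factor, the difference was 0.95 (adjusted p = 0.000415), and for Usp18, which restrains the interferon receptor, 1.73 (adjusted p = 0.00823).

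Among the GTPases, which attack the vacuoles of pathogens, Gbp5 went from a median of 0.336 to 2.83 in IP and from 0.186 to 0.632 in input (difference 1.82, adjusted p = 0.000622). Gbp2, a marker used for reactive astrocytes, was at 1.66, 2.43 and 3.19 in IP after PBS and 11.4, 14.8 and 43.8 after LPS, and in input at 0.579, 0.897 and 1.16 and then 2.44, 2.77 and 4.84. Its difference was 1.19 (SE 0.31, adjusted p = 0.00928). Gbp6 (1.32) and Ifi47 (1.31) followed. Members of these families resemble each other in sequence, and how shared reads were counted is not given in the sources used here. Gbp2, Gbp5 and Gbp6 lost the call with limma-voom. Neutrophil and monocyte markers, which move with LPS in the same libraries, had 9 of 18 differences above 0 and a median of 0.91, and their part in the interferon result was not tested.

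MHC class I and peptide loading was mixed. Of 20 genes tested 15 rose in IP and 16 in input, against 18.9% and 10.6% of all genes. There were 5 differences above 0 and 2 below. Over all genes the shares were 8.94% above 0 and 6.55% below. Above were H2-T23, a non-classical class I molecule (1.64, adjusted p = 0.000104), Psmb9 and Psmb10, subunits of the immunoproteasome (1.45 and 0.73), Nlrc5 and H2-M3. Below were Calr (-0.56) and H2-K1, a classical class I molecule, at -0.60 (adjusted p = 0.00771). H2-K1 rose in both fractions, from a median of 49.2 to 81.9 in IP and from 6.98 to 21 in input. The count above rose to 10 without PFC IP LPS replicate 2, to 9 without PFC IP LPS replicate 4 and to 8 without PFC input LPS replicate 1.

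Lists that describe reactive astrocytes leaned the same way. Of the 11 tested genes of the A1 list, which was described for astrocytes after LPS, all 11 rose in both fractions and 8 had a difference above 0, with a median of 1.19. Beside Iigp1, Fbln5, H2-T23 and Gbp2 these were Fkbp5, Amigo2 (1.45), Ggta1 (0.82) and Serping1 (0.56). With limma-voom 6 of the 11 lay above 0. Of all genes 18.9% rose in IP, 10.6% rose in input and 8.94% lay above 0. Serping1, the C1 inhibitor, lost the call in 20 of the 32 fits that left out 1 library. The pan-reactive list had 13 tested genes, of which 12 rose in IP and 10 in input, with 5 differences above 0 against a background of 8.94% (Steap4, Aspg, Hspb1, S1pr3 and Osmr, 0.68 to 1.15) and a count of 3 without VCX IP LPS replicate 2. Hspb1 lost the call with 1 FPKM added, and Osmr with limma-voom and without VCX IP LPS replicate 1, VCX IP LPS replicate 2 or VCX input PBS replicate 1. In the A2 list, 3 of 10 lay above 0, against 8.94% of all genes, and they were Cd109 (2.13), Slc10a6 (1.92) and Stat3 (0.49). Steap4, Amigo2, Ggta1 and Slc10a6 lie outside the naming rule and were named after their values were seen, as were other list members that spell out a count.

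For several well known genes of reactive astrocytes the difference was not called. Gfap, the intermediate filament that marks reactive astrocytes, was at 262, 326 and 461 in IP after PBS and 639, 986 and 1450 after LPS. In input it was at 12, 16.2 and 20.1 and then 29.9, 45.4 and 61.3. Both fractions rose without overlap, by 1.54 in IP and 1.48 in input, and the difference was 0.07 (SE 0.23, adjusted p = 0.888). Vim, another filament, rose by 0.97 and 0.84 (difference 0.14, SE 0.12, adjusted p = 0.496). Lcn2, an iron-siderophore carrier, rose by 4.86 and 5.54 (difference -0.69, SE 0.66, adjusted p = 0.544).

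Serpina3n, a secreted protease inhibitor, had a difference of 1.83 that did not pass the test (SE 0.83, adjusted p = 0.146), and its levels ranged from 65.9 to 377 in IP after LPS. Cxcl10, the interferon-induced chemokine, had a difference of 1.44 (SE 0.58, adjusted p = 0.0979), and C3, the central complement component, of 0.68 (SE 0.38, adjusted p = 0.25). An adjusted p above the threshold does not show that the effects were alike in both fractions. For C3 the sign turned with limma-voom, to -0.26. Over the 43 alternatives C3 reached 0.99 at most, and Cxcl10 ran from 0.25 to 2.08. Both C3 and Cxcl10 gained a call above 0 in 1 alternative each.

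Transport and homeostasis genes of astrocytes were mostly close to 0. Of 20 astrocyte markers 1 lay above 0, Gjb6 (connexin 30), which rose from a median of 327 to 540 in IP and from 23.1 to 31.7 in input (difference 0.32, adjusted p = 0.00453). Among 25 transport and homeostasis genes, 10 fell in IP and 14 in input, against 19.6% and 13.5% of all genes. There were 3 differences above 0 and 1 below, near the shares over all genes of 8.94% and 6.55%. The 1 below was Kcnk2, a potassium channel (-0.39, adjusted p = 0.00413). Kcnj10, the Kir4.1 channel, fell by 0.90 in IP and 0.76 in input (difference -0.13, SE 0.18, adjusted p = 0.682). Aqp4, the water channel, fell by 0.40 and 0.49 (difference 0.09, SE 0.11, adjusted p = 0.635). For the glutamate transporter Slc1a2 the difference was 0.23 (SE 0.10, adjusted p = 0.125) and for connexin 43, Gja1, 0.07 (SE 0.085, adjusted p = 0.664). The directions of Kcnj10, Aqp4 and Gja1 were not the same in PFC and VCX. The count of 3 above 0 was 5 without VCX IP PBS replicate 4.

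**Figure D4:**
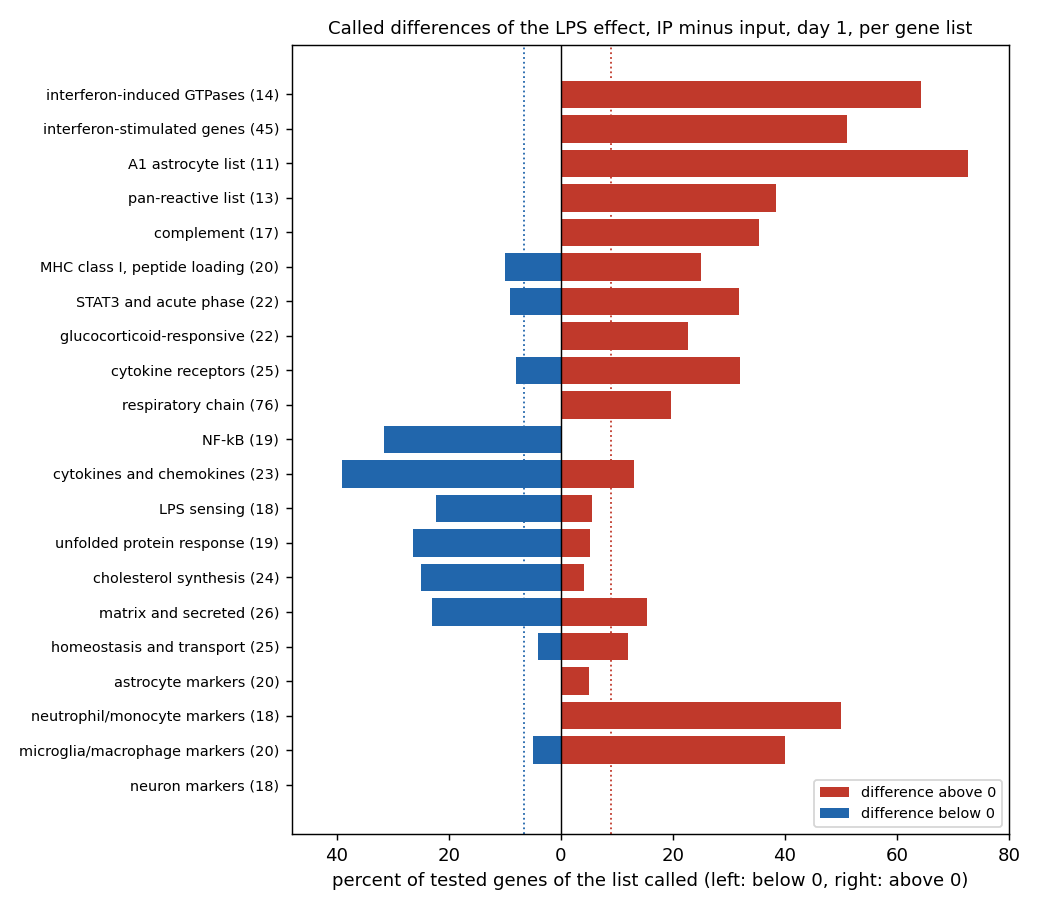
Percentage of the tested genes of 21 gene lists (number tested in brackets) whose difference was called above 0 (red, to the right) or below 0 (blue, to the left). Dotted lines mark the percentages over all genes, 8.94% above and 6.55% below. Interferon lists reach far above the red line, and NF-kB and cytokine lists far beyond the blue one.

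Genes that answer to glucocorticoids included Map3k6, while the median over the list was near 0. Of 22 tested, 11 rose in IP and 9 in input, against 18.9% and 10.6% of all genes, and 5 differences lay above 0, against 8.94%, with a median of 0.01 over the list. Beside Map3k6 these were Cdkn1a, the p21 cell cycle inhibitor (1.72), Fkbp5, Plin4, a lipid droplet protein (1.33), and Tsc22d3, which encodes GILZ (0.64). Fkbp5, a co-chaperone that dampens the glucocorticoid receptor, was at 2.57, 3.38 and 4.21 in IP after PBS and 14.3, 26 and 38.3 after LPS, and in input at 5.26, 5.64 and 7.47 and then 9.37, 13.1 and 17.3. No libraries overlapped between treatments. Its difference was 1.63 (SE 0.19, adjusted p = 6.77e-07), and as for Map3k6 the IP median went from below to above that of input. Other members of the list were near 0, among them Sgk1 (-0.17, adjusted p = 0.787) and Mt2 (-0.13, adjusted p = 0.503).

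The STAT3 and acute phase list held differences in both directions. Of 22 genes tested 18 rose in IP and 14 in input, against 18.9% and 10.6% of all genes. There were 7 differences above 0 and 2 below. Over all genes the shares were 8.94% above 0 and 6.55% below. Cebpb, a transcription factor of the acute phase, had a difference of 1.29 (adjusted p = 5.71e-05) and Socs3, the feedback inhibitor of STAT3 signalling, of 1.02 (adjusted p = 0.000578). Stat3 itself rose from a median of 43.1 to 72.7 in IP and from 8.65 to 10.7 in input (difference 0.49, adjusted p = 0.00105). Junb, at 1.09, lost the call in 21 of 32 fits that left out 1 library. Saa3, an acute phase apolipoprotein, lay below 0. It was at 0, 0.076 and 0.309 in IP after PBS and 28, 40.8 and 49.4 after LPS, and in input at 0, 0.0399 and 0.196 and then 49.6, 96.2 and 210. Every LPS library in input stood above every LPS library in IP. Its fitted effects of 7.69 and 9.19 depend on the 0.1 added, and the difference of -1.50 (SE 0.45, adjusted p = 0.024) ran from -1.91 to -1.30 over the other settings, with the call lost within PFC, within VCX and with limma-voom.

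Complement genes rose in both fractions, 15 of 17 in IP and 14 in input, against 18.9% and 10.6% of all genes. The difference lay above 0 for 6. Over all genes 8.94% lay above 0. C1ra (1.27, adjusted p = 0.00299) and C1s1 (0.95, adjusted p = 0.021), the proteases of the C1 complex, C1rl (0.73), and C1qb and C1qc, subunits of the recognition molecule (0.56 and 0.60), were above 0 with Serping1. C1qb and C1qc are mainly microglial, and their log2 IP minus input under PBS was -3.5 and -3.7. C1qb lost the call in 13 fits that left out 1 library, and both lost it with 1 FPKM added and with no rescaling. The count of 6 was 3 without PFC IP PBS replicate 3, without VCX IP LPS replicate 4 or without PFC input LPS replicate 4, 3 with limma-voom, 2 with factors computed within each fraction and 1 with no rescaling.

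Cytokine receptors had 8 differences above 0 and 2 below among 25 tested, with 20 that rose in IP and 13 in input. Of all genes 8.94% lay above 0 and 6.55% below, and 18.9% rose in IP and 10.6% in input. Il1r2, the decoy receptor of interleukin 1 (2.44, adjusted p = 2.04e-06), and Il18bp, the soluble antagonist of interleukin 18 (1.12, adjusted p = 0.00112), were among them, Il1r2 being named after its value was seen. Il17ra rose in IP by 0.40 and fell in input by 0.33 (difference 0.73, adjusted p = 3.09e-06). Osmr, the receptor subunit for oncostatin M, had a difference of 1.27 in PFC and 0.09 in VCX, and no gene was called between the areas.

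Chemokines and cytokines held more differences below 0 than above. Of 23 tested (33 listed), 16 rose in IP and 15 in input, against 18.9% and 10.6% of all genes. There were 9 differences below 0 and 3 above, against 6.55% and 8.94% of all genes. The 9 were Cxcl16, Ccl12, Tnf, Ccl3, Ccl4, Ccl7, Cxcl1, Ccl2 and Il1a, and the 3 above were Ccl6, Ccl9 and Cxcl12. With limma-voom the count below 0 was 3.

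Cxcl16, a chemokine with a membrane-bound and a shed form (chromosome 11, 70453983 to 70459984), was at 0.185, 0.384 and 0.539 in IP after PBS and 0.409, 0.641 and 0.853 after LPS. In input it was at 0.160, 0.289 and 0.368 and then 1.72, 3.41 and 4.33. The treatments overlapped in IP and not in input, and every LPS library in input stood above every LPS library in IP. The effect was 0.69 in IP and 3.11 in input (difference -2.42, SE 0.27, adjusted p = 1.49e-07).

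Ccl12, a monocyte-attracting chemokine of the mouse (chromosome 11, 82101845 to 82103400), was at 0, 0.0209 and 0.105 in IP after PBS and 1.05, 2.02 and 3.79 after LPS. In input it was at 0, 0.514 and 1.08 and then 30.5, 35.1 and 64.3. It rose in both fractions without overlap between treatments, and after LPS the input median was 35.1 against 2.02 in IP. The IP levels after PBS lie near or below the 0.1 added, so the fitted effects depend on that constant. The fitted difference was -2.30 (SE 0.49, adjusted p = 0.00172). It ran from -3.22 to -1.23 over the other settings, and the call was lost within VCX and with limma-voom.

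Ccl3, a macrophage inflammatory protein, reached a median of 0.237 in IP and 2.00 in input after LPS (difference -1.85, adjusted p = 0.0093), and this call too was lost with limma-voom. Tnf went from a median of 0.0257 to 1.77 in input and from 0.0199 to 0.357 in IP (difference -1.96, adjusted p = 1.98e-08). Ccl2 reached 1.09 in IP and 3.47 in input (difference -1.28, adjusted p = 0.00512). On the other side, Ccl6 went from a median of 0.365 to 3.06 in IP and from 0.561 to 0.826 in input (difference 2.11, adjusted p = 1.55e-06). Il1b had a difference of -0.03.

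Further genes were named in the class below 0 with the larger effect in input. Gpr84, a receptor for medium-chain fatty acids on microglia and macrophages, was at 0.157, 0.255 and 0.586 in input after PBS and 4.40, 6.47 and 8.62 after LPS, and in IP reached 0.593, 0.767 and 1.10 after LPS. Its difference was -1.66 (SE 0.22, adjusted p = 3.23e-06), with the call lost with limma-voom. Bcl2a1a, an inhibitor of apoptosis in haematopoietic cells, had a difference of -1.82 (adjusted p = 0.000336), and Ctla2a, which encodes a cathepsin inhibitor, of -1.83 (adjusted p = 2.01e-08). Both have close paralogs, and how shared reads were counted is not given. Tubb6, a beta-tubulin, was higher in IP than in input under PBS, at medians of 2.66 and 0.315, and rose by 1.97 in input (difference -1.72, adjusted p = 1.06e-05), whereas its effect of 0.25 in IP was not called.

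NF-kB genes with a called difference lay below 0. Of 19 tested, 8 rose in IP and 13 in input, against 18.9% and 10.6% of all genes. There were 0 differences above 0 and 6 below, with a median of -0.17. Over all genes 8.94% lay above 0 and 6.55% below. Nfkb2, which encodes the p100 precursor of the non-canonical pathway, was at 2.39, 2.96 and 4.52 in IP after PBS and 3.88, 4.98 and 7.63 after LPS, and in input at 0.309, 0.499 and 0.641 and then 1.32, 1.62 and 1.98. The treatments overlapped in IP and not in input. It rose by 0.70 in IP and 1.60 in input (difference -0.89, SE 0.17, adjusted p = 0.000332). The call was lost with 1 FPKM added in place of 0.1 and within VCX. Birc3, an inhibitor of apoptosis, and Tnfaip3, the A20 deubiquitinase that ends NF-kB signalling, had differences of -0.72 and -0.49 (adjusted p = 0.000236 and 0.00807), and Traf1 and Ikbke were the other members below 0. Vcam1, an adhesion molecule, fell in IP by 0.43 and rose in input by 0.38 (difference -0.81, adjusted p = 1.51e-05). Nfkbia, which encodes the inhibitor IkB-alpha, had a difference of 0.02 (SE 0.24, adjusted p = 0.977).

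In the list for LPS sensing, 4 of 18 lay below 0 and 1, Irak3, above, against 6.55% and 8.94% of all genes. Tlr2 rose from a median of 0.114 to 1.52 in IP and from 0.261 to 6.55 in input (difference -1.42, adjusted p = 0.000115, call lost with limma-voom). Tlr4, the LPS receptor itself, stood higher in IP than input, at medians of 2.18 and 0.655 after PBS and 2.54 and 1.09 after LPS. It rose by 0.66 in input, and its effect of 0.16 in IP was not called (difference -0.50, adjusted p = 0.0302). This difference ran from -0.59 to -0.22 over the settings, and the call was lost within each area, with 1 FPKM added and without any of the 3 libraries named next. The count of 4 was 2 without PFC IP PBS replicate 4, without PFC input PBS replicate 4 or without VCX input PBS replicate 1. Of 16 endothelial markers 1 lay below 0, near the 6.55% over all genes, and 0 above. Their sum went from a median of 83.1 (78.1 to 92.1) to 130 (123 to 138) in input and from 21.7 (17.4 to 24.8) to 25.3 (16.1 to 37) in IP. Its part in the results below 0 was not tested.

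Some chaperones of the endoplasmic reticulum also lay below 0. In the list for the unfolded protein response 10 of 19 rose in IP and 15 in input, against 18.9% and 10.6% of all genes. There were 5 differences below 0 and 1 above, Atf4 (0.28). Over all genes 6.55% lay below 0 and 8.94% above. Calr and Hsp90b1, luminal chaperones, had differences of -0.56 and -0.37 (adjusted p = 0.00286 and 0.015). Sdf2l1 rose in both fractions, by 0.60 in IP and 1.15 in input (difference -0.56, adjusted p = 0.0183). The count of 5 was 3 without PFC IP LPS replicate 2 or without VCX input LPS replicate 1.

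A further class below 0 had the larger effect in IP. Ptgs1, cyclooxygenase 1 of prostaglandin synthesis (chromosome 2, 36230426 to 36252272), was at 9.08, 13.6 and 18.5 in IP after PBS and 3.32, 4.43 and 6.37 after LPS. In input it was at 3.77, 5.15 and 6.85 and then 4.15, 5.40 and 6.68. All LPS libraries stood below all PBS libraries in IP, and in input they overlapped. The effect was -1.52 in IP and 0.06 in input (difference -1.58, SE 0.15, adjusted p = 7.45e-09).

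Tagln3, a transgelin of the nervous system, was at 231, 265 and 292 in IP after PBS and 99.9, 129 and 147 after LPS, and in input had medians of 178 and 163. Its difference was -0.90 (SE 0.073, adjusted p = 7.64e-10). Specc1, a cytospin, fell by 0.76 in IP and rose by 0.29 in input (difference -1.05, adjusted p = 1.34e-08). Unc5b, a netrin receptor, had a difference of -0.92 (adjusted p = 3.88e-06), Impa2, an inositol monophosphatase, of -0.89 (adjusted p = 0.000208), Cdca7, a regulator of DNA methylation in dividing cells, of -1.12 (adjusted p = 8.67e-05), and Tekt5, a tektin, of -1.26 (adjusted p = 2.55e-06). For all of these the treatments did not overlap in IP.

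Matrix genes went both ways, with 4 of 26 above 0 and 6 below, against 8.94% and 6.55% of all genes. Beside Fbln5, Tgfbi, a matrix protein induced by TGF-beta, rose from a median of 0.469 to 4.76 in IP and from 1.13 to 1.91 in input (difference 2.17, adjusted p = 1.36e-08). Adamts9, a protease that cleaves proteoglycans, fell in IP from a median of 2.99 to 1.91 and rose in input from 0.411 to 0.849 (difference -1.56, SE 0.12, adjusted p = 3.6e-10). Adamts1 rose in both (difference -0.62, adjusted p = 0.00874), and among the proteoglycans Ncan had a difference of -0.57 and Vcan of -0.69 (adjusted p of Vcan 0.000287).

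Genes of cholesterol synthesis fell in both fractions, 19 of 24 in IP and 17 in input with 1 that rose in input, against 19.6% and 13.5% of all genes that fell. There were 6 differences below 0 and 1 above, against 6.55% and 8.94% of all genes. Dhcr7, which makes the last step to cholesterol, fell by 0.86 in IP and 0.26 in input (difference -0.60, adjusted p = 0.000221). Mvd, Fdft1 and Fdps, enzymes of the mevalonate and squalene steps, had differences of -0.53, -0.51 and -0.45, and Pmvk and Mvk, the kinases of the mevalonate pathway, of -0.41 and -0.42. Hmgcs1, which starts the pathway, fell by 0.72 and 0.78 (difference 0.06, SE 0.089, adjusted p = 0.738).

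Respiratory chain subunits encoded in the nucleus were above 0 in 15 of 76 tested genes and below in none, with a median difference of 0.18. In IP 30 rose and in input 0. Of all genes 8.94% lay above 0, and 18.9% rose in IP and 10.6% in input. Ndufc2, a complex I subunit, was at 138, 174 and 221 in IP after PBS and 236, 279 and 320 after LPS, and in input had medians of 86.1 and 77.6 (difference 0.72, adjusted p = 7.64e-05). Uqcrq of complex III and Ndufc1 of complex I had differences of 0.50 and 0.45. The count moved with single libraries and with scaling. It was 8 without VCX IP PBS replicate 1, 9 without PFC input PBS replicate 4, 24 without VCX IP PBS replicate 4 and 30 without PFC input PBS replicate 1, and 5 with no rescaling and 10 with factors computed within each fraction.

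The named genes above 0 with the larger effect in input fell in the lysate. P2ry12, the ADP receptor of resting microglia (chromosome 3, 59216272 to 59262871), was at 15.2, 16.7 and 19.6 in input after PBS and 2.76, 3.93 and 5.61 after LPS. In IP it was at 4.84, 6.15 and 7.49 and then 2.6, 4.55 and 6.14. All LPS libraries in input stood below all PBS libraries, whereas the IP libraries of both areas together overlapped. Within PFC the IP libraries overlapped, and within VCX they did not, at 4.84 to 6.77 after PBS and 2.6 to 4.27 after LPS. The effect was -0.53 in IP and -2.07 in input (difference 1.54, SE 0.14, adjusted p = 8.25e-09). Trem2, a lipid receptor of microglia, fell by 0.77 in input (difference 0.80, adjusted p = 0.000415), and its effect of 0.03 in IP was not called.

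Microglial and macrophage markers moved in both directions. Of 20 tested, 13 rose and 2 fell in IP, 13 rose and 4 fell in input, and 8 differences lay above 0 and 1, Tmem119, below. Of all genes 18.9% rose and 19.6% fell in IP, and 10.6% rose and 13.5% fell in input. Over all genes 8.94% lay above 0 and 6.55% below. Tyrobp, the DAP12 adaptor, had medians of 2.18 and 9.22 in IP and 18.5 and 34.9 in input (difference 1.20, adjusted p = 0.000164). Itgam, the CD11b integrin shared by microglia, monocytes and neutrophils, had a difference of 1.15 (adjusted p = 2.64e-05). The summed microglial markers were higher in input than in IP in both treatments, with medians of 272 (257 to 301) and 438 (374 to 491) in input against 70.9 (63.2 to 85.3) and 121 (103 to 131) in IP, and their part in these results was not tested.

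Neutrophil and monocyte markers had 9 differences above 0 and 0 below among 18 tested, against 8.94% and 6.55% of all genes. Mmp8, the neutrophil collagenase, was at 0.0419, 0.205 and 0.6 in IP after PBS and 1.81, 2.56 and 4.05 after LPS, against medians of 0.0116 and 0.105 in input (difference 2.22, adjusted p = 1.68e-05). These input medians lie near or below the 0.1 added, as do those of Ly6c2 (0 and 0.088). The fitted differences of Mmp8 and Ly6c2 therefore depend on that constant. Over the other settings Mmp8 ran from 0.77 to 2.96 and Ly6c2 from 1.23 to 2.73. Ly6c2 (2.15) and Mmp9 (1.65) followed, while S100a8, a subunit of the neutrophil alarmin calprotectin, had a difference of 0.43 (adjusted p = 0.554) at medians of 66.5 in IP and 7.08 in input after LPS. Chil3, a secreted lectin, had a difference of 1.39 (adjusted p = 0.0379) that turned to -0.64 with limma-voom. With that test 3 of the 18 lay above 0, and Mmp8 and Ly6c2 lost the call. With 1 FPKM added in place of 0.1 the count was 14, and with the filter at 1 FPKM it was 6 of 13.

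Other genes were named in the same class. Cort, the neuropeptide cortistatin of interneurons, had medians of 4.90 and 2.47 in input and 0.0829 and 0.214 in IP (difference 1.46, adjusted p = 0.00893, lost within VCX and with limma-voom). Akr1b8 (1.33), an aldo-keto reductase, rose in IP and fell in input, as did the signalling adaptor Samd5 (1.20, adjusted p = 3.09e-10), the orphan receptor Gpr153 (1.10) and Klf10 (1.02), a transcription factor induced by TGF-beta. In IP the treatments overlapped for each of these genes. For Akr1b8 the IP range after LPS (1.88 to 4.69) lay inside that after PBS (1.19 to 5.24). Hist1h3c, a histone gene from a family of near-identical copies, had a difference of 1.83 (adjusted p = 0.0104) that was lost within each area. Its input levels after LPS, at 0.0395, 0.222 and 0.589, reach below the 0.1 added. Of the 18 neuron markers 0 were called in either direction, with a median difference of 0.

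PFC and VCX were also compared. In a direct test of PFC against VCX, 0 of 15048 genes were called (0%), 1017 (6.76%) had an unadjusted p under 0.05, the lowest adjusted p was 0.708, and limma-voom also called 0. Of the 2331 genes called over both areas, 2326 (99.8%) had the same sign in PFC and VCX. This share is partly fixed by calling on the average of the areas. Within PFC alone 510 genes lay above 0 and 384 below, and within VCX 814 and 499.

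Day 1 was also set against the 30 IP and input libraries of day 2. Each day comes from a sequencing project of its own, so that day and project cannot be told apart. Over 15308 genes tested on both days, the signed difference was called higher on day 1 than on day 2 for 363 (2.37%) and lower for 225 (1.47%). These counts go by sign and not by size, so Cxcl16, which lay further below 0 on day 1, is among the 225. Of the 2331 genes called on day 1, 480 (20.6%) had a called change between the days. This share is partly fixed, because the same day 1 values enter both tests. For the same reason, genes named for the size of their day 1 difference tend to show a smaller one on day 2.

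Map3k6 and Slco4a1 were near 0 on day 2, at 0.47 and 0.16, and the change between the days was 2.58 and 2.63 (adjusted p = 2.38e-06 and 3.18e-06). Lao1 went from 2.88 to 0.46 (adjusted p = 0.00615), and P2ry12 from 1.54 to 0.10 (adjusted p = 4.45e-05). For named interferon genes the change between the days was not called. Ifit1 was at 1.92 and 1.56 (adjusted p of the change 0.799), Iigp1 at 2.67 and 2.05 (adjusted p = 0.66) and Gbp2 at 1.19 and 0.92 (adjusted p = 0.83).

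For 4 genes known from myeloid cells the sign differed between the days. Cybb, the catalytic subunit of the phagocyte NADPH oxidase, had a difference of -1.46 on day 1 and 1.26 on day 2 (change -2.73, adjusted p = 0.000637). On day 1 it was at 1.93, 2.75 and 3.37 in IP after LPS and 1.06, 2.37 and 5.43 in input, and its day 1 call was lost within each area, with 1 FPKM added and with limma-voom. Pilra, an inhibitory receptor of myeloid cells, went from -1.59 to 1.03 (adjusted p = 1.01e-05), Ms4a6c from -1.54 to 0.86 (adjusted p = 0.000327), and Msr1, a scavenger receptor, from -0.85 to 1.13 (adjusted p = 0.00346). With limma-voom the day 1 calls of Ms4a6c and Msr1 were lost, and that of Msr1 was also lost within VCX, with values from -1.25 to -0.17 over the settings. Cxcl16 went from -2.42 to -0.56 (adjusted p = 0.000606), and Ccl12 was at -2.30 and -1.94 (adjusted p = 0.886).

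**Figure D5:**
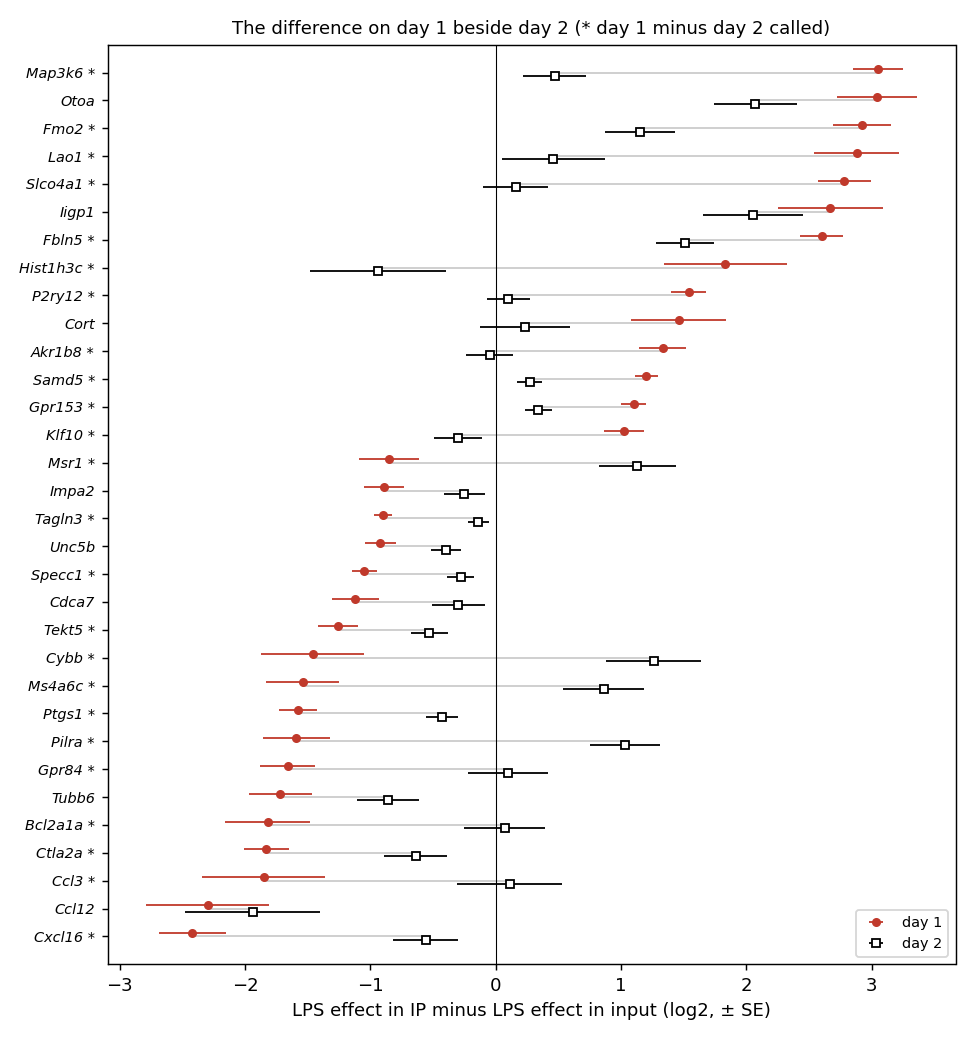
LPS effect in IP minus LPS effect in input (horizontal axis, log2, with the standard error) on day 1 (red circles) and day 2 (open squares) for 32 named genes. An asterisk marks genes whose change between the days was called. Map3k6 moves from 3.05 to 0.47, and Cybb, Pilra, Ms4a6c and Msr1 lie below 0 on day 1 and above 0 on day 2.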

How the data were processed

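Poly(A) RNA libraries of 32 day 1 samples were used, with 30 from day 2 for 1 comparison. The files deposited by the authors hold FPKM, read from the values since no label names the unit: within a gene all libraries hold whole multiples of a step set by gene length and library total. STAR, HTSeq and mm10 are named in the submitters' processing notes. Versions, annotation and strand are not given in the sources used here, so overlapping genes cannot be told apart. Working back gave whole reads, which were used for depth and for limma-voom only. From the deposited FPKM, log2(FPKM divided by a TMM factor + 0.1) was computed for genes with at least 0.5 FPKM in at least 4 libraries. A low gene's change is understated on this scale. limma 3.58.1 (R 4.3.3) fitted the 8 groups with sex as a covariate, with trended, robust empirical Bayes moderation and Benjamini-Hochberg adjustment over all genes tested, and called genes at 0.05. The scripts were tested on simulated data. Figures were drawn with matplotlib 3.10.9.

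Genes were named by a rule: the 7 with the largest difference in each class of sign and leading fraction, with the same sign in both areas and a group mean of at least 2 FPKM, 16 key genes, and up to 4 genes of each list and of each direction of the day comparison. Others were named after their values were seen. The comparison, lists and rule were chosen with earlier results of these data known. Gene positions are from GENCODE vM21 (mm10). Alternatives were the added constant, the filter, the scaling, limma-voom, sex, fraction weights, each area alone and each library left out. Some genes are not reported here.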

Additional observations from a re-analysis of the deposited data

Results flagged for a closer look

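Within each group of 4 libraries, Dixon's test was run on log2(scaled FPKM + 0.1) of 43 named genes. It takes the gap from the highest or lowest library to the nearest library as a share of the range. Levels below are scaled FPKM. Of 344 groups 18 held such a library, 5.23%, where chance gives about 1 in 20. In PFC these were Map3k6 at 2.12 in input LPS replicate 3, Tekt5 at 3.13 in input PBS replicate 1 and 2.91 in IP PBS replicate 2, Unc5b at 0.419 in IP LPS replicate 2, Ccl12 at 64.3 in input LPS replicate 1, Cxcl10 at 64.8 in IP LPS replicate 3, Fkbp5 at 9.37 in input LPS replicate 4, Kcnj10 at 116 in IP LPS replicate 1 and Gja1 at 34 in input PBS replicate 1. In VCX they were Fmo2 at 6.44 in IP LPS replicate 4, Slco4a1 at 0.73 in input PBS replicate 1, Klf10 at 4.02 in IP PBS replicate 2, Cxcl16 at 0.185 and Ccl3 at 0.104 in IP PBS replicate 4, Ccl12 at 0.0459 in IP PBS replicate 3, Gpr84 at 0.157 in input PBS replicate 3, Vim at 8.91 in input PBS replicate 2 and Kcnj10 at 6.12 in input LPS replicate 2.

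The difference between IP and input effects itself differed between day 1 and day 2, by limma's test of that change, for these genes of the classes and of the key gene list. Day 1 lay above day 2 by 2.77 for Hist1h3c, 2.63 for Slco4a1, 2.58 for Map3k6, 2.42 for Lao1, 1.76 for Fmo2, 1.45 for P2ry12, 1.38 for Fkbp5, 1.37 for Akr1b8, 1.32 for Klf10, 1.09 for Fbln5, 0.93 for Samd5, 0.77 for Gpr153 and 0.52 for Hmgcs1, all log2. Day 1 minus day 2 was negative for Ccl3 (-1.96), Bcl2a1a (-1.89), Cxcl16 (-1.86), Gpr84 (-1.76), Ctla2a (-1.19), Ptgs1 (-1.15), Specc1 (-0.77), Tagln3 (-0.76) and Tekt5 (-0.73). Day and sequencing project cannot be told apart. The class genes were chosen by their day 1 values, which also enter the test of the change.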

How the results depend on the processing

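Within PFC alone 510 genes lay above 0 and 384 below, with 3386 called in IP and 2019 in input, and within VCX alone the counts were 814, 499, 3680 and 2201, against 1345, 986, 5788 and 3633 over both areas. These fits use fewer libraries per contrast. Under the other alternatives each of these counts stayed within 1.5 times its value. Leaving out each library in turn gave 1037 to 1661 genes above 0, 884 to 1211 below, 5239 to 6138 in IP, 3159 to 3819 in input, 0 to 0 between the areas and 477 to 714 between the days (588 with all libraries).

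For the 152 named genes, 6148 values under alternatives kept direction and side of the threshold, 374 kept the direction and lost the call, 4 gained a call and 10 changed sign. Of these genes 56 lost the call within PFC alone, 48 within VCX alone, 23 with limma-voom and 8 with 1 FPKM added. With limma-voom C3 was at -0.26 and Chil3 at -0.64. Kcnj10 was at 0.14 within PFC, and within VCX Aqp4 was at -0.04, Gja1 at -0.04 and Hmgcs1 at -0.06. Without 1 library Gfap was between -0.05 and 0.17, and the lowest value of Hmgcs1 was 0. The cause was not tested. No paired analysis was possible because no 2 day 1 libraries share a running number. Depth limits the values of genes near the added 0.1 FPKM.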
